A study of Mus musculus with 2 samples.

Results

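Mgmt-high B cells are B cells of mouse epididymal fat that carried several transcripts of Mgmt, the gene for the DNA repair protein O6-methylguanine-DNA methyltransferase. They were chosen by counts of unique molecular identifiers (UMIs, 1 per captured transcript), among barcodes that passed limits of 1500 UMIs or more, 500 detected genes or more and a mitochondrial share of 15% or less. A cell was gated as a B cell when Cd79a, Cd79b and Ms4a1 together gave at least 4 UMIs. Cells were removed when Jchain reached 10 UMIs per 10000, when Cd3d, Cd3e and Cd3g gave over 1 UMI, when the 3 C1q genes reached 10 UMIs per 10000, or when Col1a1, Col3a1 and Dcn reached 30 UMIs per 10000. A gated B cell was called Mgmt-high with at least 2 Mgmt UMIs. This gave 196 Mgmt-high cells of 905 gated B cells, out of 21117 barcodes that passed the quality filter and 26186 barcodes in all. Of the 196 cells, 194 came from the wild-type library and 2 from the knockout library, so nearly all values below describe the wild-type cells and set them against the other gated B cells of both libraries.

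The study compared wild-type mice with mice that lack Camk2d, which encodes the delta isoform of a calmodulin-dependent protein kinase, in their myeloid cells. Both groups were studied after 10 weeks of high-fat diet. Single-cell RNA-seq was run on the stromal vascular fraction, the cells left after mature adipocytes are removed from digested fat. There was 1 library per genotype. The labels used here name neither the Cre driver, nor the floxed allele, nor how many animals went into a library, nor the animals' age. The free-text description of both samples names a limb tissue of the embryo, while the title, source and tissue fields name epididymal white fat. By their transcripts, 2851 wild-type and 3687 knockout cells were gated as adipose progenitors, and which tissue the free-text field means was not resolved.

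The protein encoded by Mgmt removes alkyl groups from the O6 position of guanine and is used up in the reaction. Keratins 8 and 18 are the intermediate filament pair of simple epithelia and are not typical B cell products. Mouse B cells include follicular B cells, which express IgD and CD23 (Fcer2a), and B-1 cells, which are self-renewing, mostly IgM-positive and common in body cavities and visceral fat. Each B cell clone joins variable (V) and joining segments, and in the heavy chain also a diversity segment, into 1 heavy and 1 light chain. The functional V segments that a clone transcribes can thus mark its receptor, while a V pseudogene encodes no receptor chain.

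In the wild type, 13085 of 15555 barcodes passed the quality filter, and the library totalled 75436677 UMIs. In the knockout, 8032 of 10631 barcodes passed, and the total was 87015918 UMIs. The libraries shared 48 barcode sequences, none of them among gated B cells. With 1 library per genotype there is no test of any difference, and no p-value is given. Intervals are exact 95% intervals, Poisson for levels and Clopper-Pearson for shares, and they cover counting error only. Levels are given as CPM, the UMIs of a gene summed over the cells of a set and scaled to 1000000 UMIs of that set. Ratios are given as log2. Cells of 1 library are not replicates.

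The V segment transcripts of these cells came mostly from 4 segments, and the last 90 bases of each are shown because the result turns on them. Capitals mark the conserved cysteine codon TGT and the codon before it, after which the segment joins its neighbour. The sequences are those of the GENCODE M21 transcripts on GRCm38, written 5′ to 3′ on the coding strand.
Igkv3-7: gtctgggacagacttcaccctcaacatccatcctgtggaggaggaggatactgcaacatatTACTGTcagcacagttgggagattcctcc
Igkv3-12-1: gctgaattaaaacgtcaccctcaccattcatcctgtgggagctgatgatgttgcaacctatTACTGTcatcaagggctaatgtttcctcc
Igkv5-45: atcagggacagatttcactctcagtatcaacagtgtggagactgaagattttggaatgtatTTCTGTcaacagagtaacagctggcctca
Ighv12-3: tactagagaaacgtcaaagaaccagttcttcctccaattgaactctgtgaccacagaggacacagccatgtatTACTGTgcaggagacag

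Igkv3-7 lies at chr6:70607437-70608036 on the plus strand. Igkv3-12-1, which the annotation lists as a pseudogene, lies at chr6:70497681-70498273 on the minus strand, and Igkv5-45 at chr6:69775750-69776344 on the minus strand. The heavy chain segment Ighv12-3 lies at chr12:114366521-114366954 on the minus strand. The printed bases of Igkv3-7 matched those of Igkv3-12-1 at 60 of 90 positions (66.7%) and those of Igkv5-45 at 58 of 90 (64.4%), aligned without gaps. Igkv3-12-1 and Igkv5-45 matched at 49 of 90 positions (54.4%).

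In the wild-type Mgmt-high cells these 4 segments gave 150 of 195 V segment UMIs, or 76.9% (interval 70.4% to 82.6%). Igkv3-7 gave 60 UMIs in 47 cells, Igkv3-12-1 gave 38 UMIs in 36 cells, and Igkv5-45 and Ighv12-3 gave 26 UMIs in 25 cells each. The next segment, Igkv12-44, gave 7 UMIs, so the fall after the fourth segment was steep. Ighv12-3 made up 26 of the 39 heavy chain V UMIs (66.7%). Few V transcripts were read, as these libraries read the 3′ end of transcripts and V segments lie at the 5′ end: 118 of 194 cells had any V UMI and 102 had one from the 4 segments. Of these 102 cells, 29 held UMIs from 2 of the 4 segments, so the cell counts per segment overlap. A kappa segment could be called in 15 cells (at least 2 UMIs and over 50% of the kappa V UMIs of the cell), and in 12 of them it was Igkv3-7.

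The other B cells spread their V transcripts more widely. The 4 segments gave 29 of 171 V UMIs (16.96%, interval 11.7% to 23.4%) in the other gated B cells of the wild-type library, and 5 of 450 (1.11%, interval 0.362% to 2.57%) in those of the knockout library. The number of different segments seen was 22 in the Mgmt-high cells, 69 in the wild-type others and 107 in the knockout others. Within the wild-type others, the share was 54.8% (17 of 31 UMIs) in the 38 cells with 1 Mgmt UMI and 8.57% (12 of 140) in the 304 cells with none. Ighv12-3 was also the leading heavy chain segment of the wild-type others, with 14 of 70 heavy chain V UMIs (20%). Of these 14, 5 came from the cells with 1 Mgmt UMI. This segment was thus not particular to the Mgmt-high cells. The wild-type cells gated as T cells gave 3 kappa V UMIs in 877 cells and no heavy chain V UMI. That gate took only cells without a Cd79a, Cd79b or Ms4a1 UMI, so these counts may understate free RNA. Reads from near-identical V segments could be split or dropped by the counting, so each single segment's value is uncertain. Whether the cells descend from 1 cell was not tested.

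**Figure D1:**
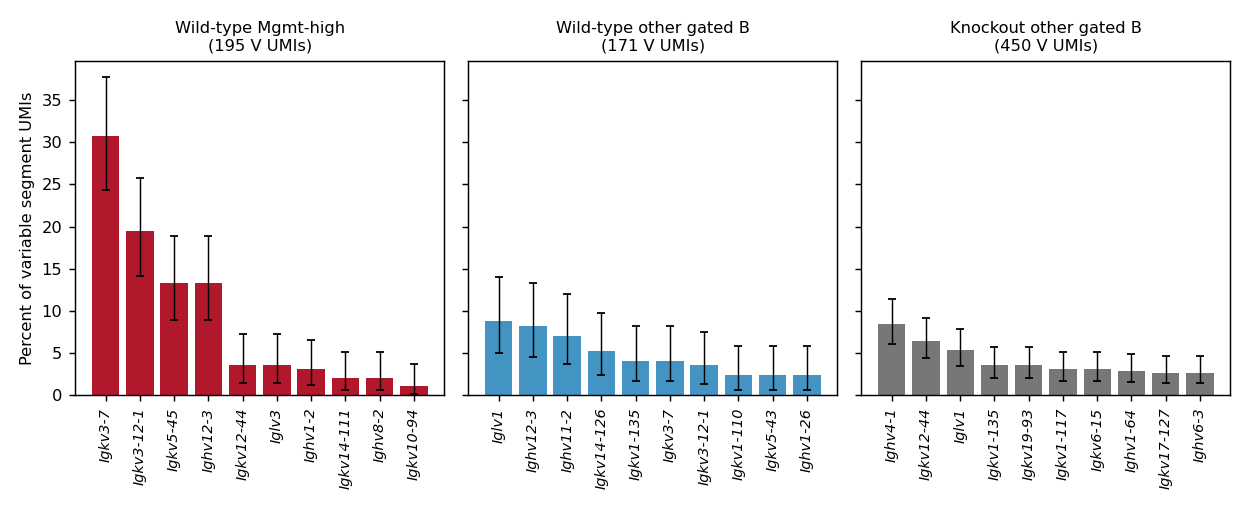
Percent of all V segment UMIs (y axis) from each of the 10 most frequent segments (x axis) in the wild-type Mgmt-high cells, the wild-type other gated B cells and the knockout other gated B cells. Bars are shares of summed UMIs with 95% Clopper-Pearson intervals. The leading segment reaches 30.8% in the Mgmt-high cells, and no segment of the other sets reaches 10%.

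The rule fixed the Mgmt counts, which are given here as a description. In the wild-type library, Mgmt-high cells were 194 of 536 gated B cells (36.2%, interval 32.1% to 40.4%). In the knockout library they were 2 of 369 (0.542%, interval 0.0657% to 1.94%). Gated B cells as a whole were a similar share of passed barcodes in the libraries, 4.096% in the wild type and 4.59% in the knockout, while those that were not Mgmt-high were 2.61% and 4.57%. The wild-type Mgmt-high cells carried a median of 5 Mgmt UMIs, with quartiles of 3 and 7 and a maximum of 26. Just outside the threshold, 38 wild-type cells had 1 Mgmt UMI, a median of 1.52 Mgmt UMIs per 10000, and just inside it 33 cells had 2, a median of 2.51 per 10000. Summed over cells, Mgmt stood at 532 CPM in the wild-type Mgmt-high cells, 24.6 CPM in the wild-type others and 9.94 CPM in the knockout others. T cells, macrophages and progenitors of the wild-type library had between 9.11 and 14.01 CPM.

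A threshold in UMIs favours cells that were read deeply. Median UMIs per cell were 9584 in the wild-type Mgmt-high cells, 3938.5 in the wild-type others and 5622 in the knockout others. After each cell was thinned to 1500 UMIs, Mgmt was seen in 53.6% of the Mgmt-high cells, 2.05% of the wild-type others and 1.09% of the knockout others. The share in wild-type T cells, at a median of 4087 UMIs, was then 1.03%. Unthinned, 11.1% of the wild-type others, 6.54% of the knockout others and 4.22% of the T cells had a Mgmt UMI. The knockout others were thus read more deeply than the wild-type others, with fewer Mgmt UMIs.

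**Figure D2:**
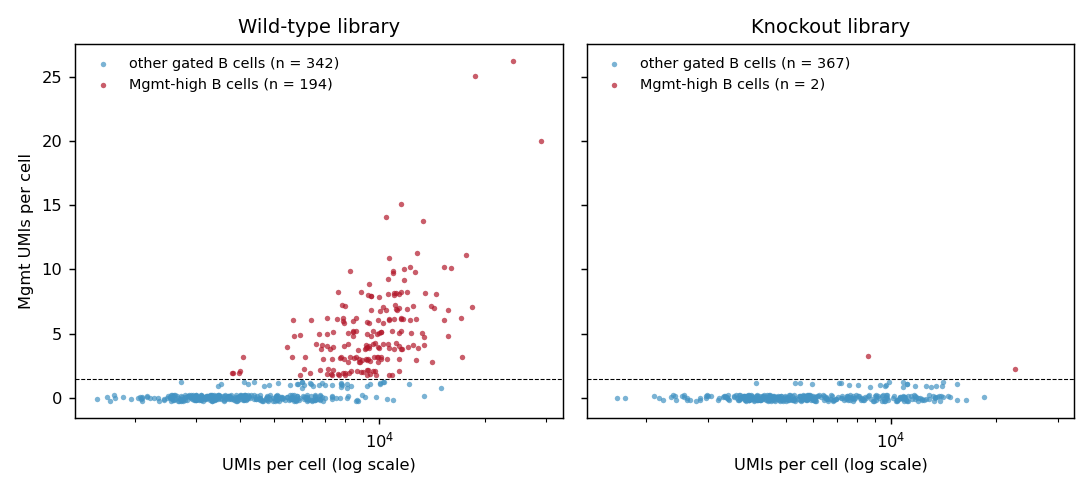
Mgmt UMIs per gated B cell (y axis, points spread slightly around whole numbers) against all UMIs of the cell (x axis, log scale) in each library. The dashed line marks the threshold of 2 UMIs, with 194 wild-type and 2 knockout cells above it. The highest wild-type cell has 26 Mgmt UMIs.

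Beyond Mgmt, the wild-type Mgmt-high cells had more keratin, Zcwpw1, Ctla4 and Tnfsf8 transcripts than the other gated B cells of their library. Of 2061 genes with a mean of at least 50 CPM and at least 30 UMIs in the higher set, 37 (1.80%) were 2-fold or more higher, and 91 (4.42%) were lower by that much. Against only the 304 wild-type cells without a Mgmt UMI, 51 genes (2.44%) were higher and 136 (6.52%) lower. The genes described below come from the 14 highest and 14 lowest ratios among them, leaving out immunoglobulin, ribosomal, mitochondrial, haemoglobin and unnamed genes. All 14 of the highest were also 2-fold or more higher than in the knockout other gated B cells, against which 80 genes (3.92%) were higher and 174 (8.52%) lower. That comparison uses the same Mgmt-high cells, so it is no independent repeat. Between the wild-type and the knockout others, 69 genes (3.11%) were higher in the wild type and 18 (0.810%) lower.

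Krt8 and Krt18, which sit side by side on chromosome 15 (chr15:101996698-102004482 and chr15:102028180-102032027, GRCm38), had similar ratios. Krt8 had 162 CPM (interval 144 to 180) in the Mgmt-high cells, 40.1 CPM in the wild-type others and 12.4 CPM in the knockout others. Krt18 had 149 CPM, 38.2 CPM and 7.04 CPM in the same order. The log2 ratio to the wild-type others was 2.01 (interval 1.61 to 2.43) for Krt8 and 1.96 (1.55 to 2.39) for Krt18. After thinning, Krt8 was seen in 15.98% of Mgmt-high cells and Krt18 in 24.2%, against 2.92% and 3.51% of the wild-type others and 0.228% and 0.114% of the T cells. The other keratins of simple epithelia on the list, Krt7 and Krt19, had no UMI in the Mgmt-high cells. Epcam stood at 7.22 CPM against 8.41 CPM in the wild-type others, so 2 of the 7 keratin and epithelial genes were high and the epithelial surface genes were not. Of the 7 mesothelial markers, Msln and Lrrn4 were at 0, and the summed level was 9.29 CPM against 9.70 CPM.

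Zcwpw1, a histone methylation reader known from meiosis, had the most transcripts of the named genes. It stood at 724 CPM (interval 687 to 763) in the Mgmt-high cells, 220 CPM in the wild-type others and 181 CPM in the knockout others, and 98.5% of the Mgmt-high cells had a UMI. Utf1, a chromatin factor known from pluripotent cells, had 92.4 CPM, 18.1 CPM and 1.24 CPM, the last from 3 UMIs. Arid3a, a transcription factor that binds immunoglobulin heavy chain regulatory DNA, had 125 CPM, 42.7 CPM and 19.9 CPM. Among these 3 sets, all 3 genes were lowest in the knockout others. In the 304 wild-type cells without a Mgmt UMI, Zcwpw1 was lower still, at 136 CPM (interval 117 to 158). Utf1 and Arid3a had 4.69 and 24.2 CPM there, above the knockout others.

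Among signalling genes, the largest ratio belonged to Tnfsf8, which encodes the ligand of CD30. It had 86.2 CPM (interval 73.6 to 100) in the Mgmt-high cells, 14.9 CPM in the wild-type others and 36.5 CPM in the knockout others, a log2 ratio of 2.53 (1.90 to 3.23) within the wild type. Ctla4, an inhibitory receptor best known from T cells, had 123 CPM, 43.3 CPM and 50.1 CPM. Ebi3, a subunit of interleukin 27 and interleukin 35, had 92.9 CPM, 34.3 CPM and 19.5 CPM. Adm, which encodes the peptide hormone adrenomedullin, had 137 CPM, 37.5 CPM and 12.4 CPM. The other high genes were Shisa8, Serpinb6b, Smim40, Exosc8 and Rdh12, with log2 ratios from 1.40 for Rdh12 to 2.25 for Shisa8. The non-coding transcript E330020D12Rik and Cd24a, which fell outside the naming rule or its highest 14 and were picked after their values were seen, had 560 and 673 CPM against 114 and 264 CPM in the wild-type others.

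**Figure D3:**
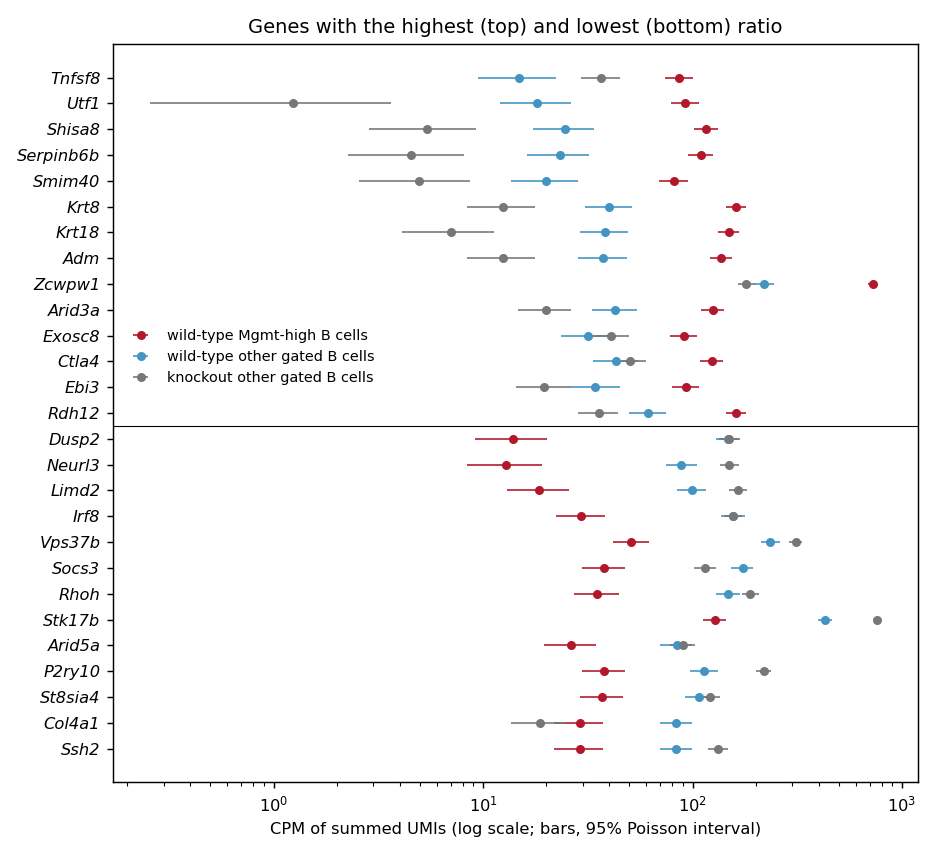
CPM of summed UMIs (x axis, log scale) for the 14 genes with the highest and 13 of the 14 with the lowest ratio of wild-type Mgmt-high to wild-type other gated B cells (y axis). Points show the wild-type Mgmt-high cells, the wild-type others and the knockout others, and bars are 95% Poisson intervals. The Mgmt-high cells lie above both other sets for the 14 upper genes and below both for the lower genes except Col4a1.

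The lowest ratio among the named genes belonged to Dusp2. This gene, which encodes a phosphatase of MAP kinases, had 13.9 CPM in the Mgmt-high cells, 148 CPM in the wild-type others and 150 CPM in the knockout others, a log2 ratio of -3.41 (interval -4.04 to -2.83). Irf8, a transcription factor of B cell development, had 29.4 CPM, 156 CPM and 156 CPM. Socs3, an inhibitor of cytokine signalling, had 37.7 CPM, 173 CPM and 115 CPM. Stk17b, a kinase of lymphocytes, had 127 CPM, 431 CPM and 760 CPM. Others were Neurl3, Limd2, Vps37b, Rhoh, Arid5a, P2ry10, St8sia4, Ssh2 and Col4a1. Of these 14, 13 were also lower than in the knockout others by 2-fold or more. The exception was Col4a1, a basement membrane collagen, with 28.9 CPM against 83.4 CPM in the wild-type others but 18.6 CPM in the knockout others.

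RNA of other cell types moved with this comparison. The macrophage list summed to 694 CPM in the Mgmt-high cells, 1115 CPM in the wild-type others and 334 CPM in the knockout others. The progenitor list gave 611, 1255 and 288 CPM, the erythroid list 3930, 8134 and 5044 CPM, and the mast cell list 59.9, 110 and 15.7 CPM. Only 5 of the 8 macrophage genes and 3 of the 6 progenitor genes lay outside the rule, so the rule limited part of these sums. The measured genes outside it had median log2 ratios of -1.03 and -1.01 to the wild-type others. To the knockout others these medians were 1.14 and 1.79. All 4 list sums, macrophage, progenitor, erythroid and mast cell, were lower in the Mgmt-high cells than in the wild-type others. Cd4 of the T cell list was at 0. Their part in the lower genes was not tested. Ribosomal protein genes took 38.8% of UMIs in the Mgmt-high cells, against 28.5% in the wild-type others and 29.7% in the knockout others. With sums scaled by the median ratio over genes instead of the total, log2 ratios shifted up by 0.27, and 87 genes were higher by 2-fold or more and 33 lower.

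Gene lists were read over members with at least 10 CPM in the higher set, and a member was counted as higher or lower from 1.5-fold. Over all 7468 such genes, 7.90% were higher, 31.1% were lower, and the median log2 ratio was -0.29. Against the knockout others, of 7276 genes 13.0% were higher and 29.7% lower, with a median of -0.24. The lists were chosen with results of these data known.

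B cell identity transcripts were present. Cd79a, part of the rule and of the B cell receptor, stood at 1372 CPM in the Mgmt-high cells, 1832 CPM in the wild-type others and 2105 CPM in the knockout others. Of the 12 other identity genes, none was higher, 4 were lower and 8 lay between, with a median of -0.46, a share near that over all genes. Against the knockout others 7 of 12 were lower. The 4 lower genes were Ebf1, Pax5, Bank1 and Ralgps2. Ebf1, a transcription factor that sets B cell fate, had 206 CPM against 515 CPM in the wild-type others and 871 CPM in the knockout others. Pax5, its partner in B cell commitment, had 96.0 CPM, 173 CPM and 232 CPM in that order. Both were thus lowest in the Mgmt-high cells.

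The follicular and B-1 lists leaned in opposite directions within the wild type, each in 5 of 10 genes. Of 10 follicular genes, 5 were lower and none higher, with a median of -0.96. Fcer2a, the low-affinity IgE receptor CD23, had 1 UMI in the Mgmt-high cells (0.516 CPM) against 66.6 CPM in the wild-type others and 124 CPM in the knockout others. Bach2, a repressor that holds B cells back from differentiation, had 21.2 CPM, 55.6 CPM and 102 CPM. Of 10 measured B-1 genes, 5 were higher and none lower, with a median of 0.65 against the wild-type others and 0.43 against the knockout others. The 5 were Ctla4, Spn (the surface protein leukosialin), Zbtb32, Itgam (an integrin of macrophages and B-1 cells) and Fcrl5. Against the knockout others the 5 higher genes were Ctla4, Itgam, Bhlhe41, Cd9 and S100a6. Itgam had 67.6 CPM, 40.7 CPM and 22.4 CPM. Bhlhe41, a transcription factor that B-1 cells need, had 59.9 CPM, 40.1 CPM and 39.8 CPM, just under the 1.5-fold limit. Cd5, which marks the B-1a subset, had 14 UMIs, or 7.22 CPM against 5.82 CPM in the wild-type others and 1.24 CPM in the knockout others. Spn, Zbtb32 and Fcrl5 did not stand higher against the knockout others, where their log2 ratios were -0.10, 0.14 and -0.04.

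Markers of other B cell stages were mixed or absent. Of 5 measured marginal zone genes, 2 were higher (Mzb1 and Fcrl5) and 2 lower (Tm6sf1 and Cr2), and the list summed to 994 CPM against 629 CPM in the wild-type others, most of it Mzb1. Cr2, the complement receptor of marginal zone cells, had no UMI in the 194 Mgmt-high cells against 22.6 CPM in the wild-type others. Vpreb1, Vpreb2, Igll1, Rag1, Rag2 and Dntt of the precursor list also had none, and Vpreb3 had 1 UMI against 66.0 CPM. Cd24a was the only precursor gene that was higher. Among memory genes, Cd80 and Pdcd1lg2 were higher at 21.7 and 27.9 CPM against 4.53 and 11.6 CPM, while Nt5e, Cd38 and Cd27 were lower. In the secretory list, Mzb1 and Derl3, which act in the endoplasmic reticulum, were higher at 895 and 20.1 CPM against 500 and 3.88 CPM, while Xbp1 and Prdm1, the factors that drive antibody secretion, were lower.

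Signalling lists differed in their counts, which are read beside 31.1% lower and 7.90% higher over all genes against the wild-type others. Of 18 immediate early and activation genes, 12 were lower and none higher against the wild-type others, with a median of -0.83. Against the knockout others 4 were lower and 1 higher, with a median of -0.23, so the list's values depended on the comparison cells. Of 13 NF-kB genes, 5 were lower and only Ebi3 was higher. Of 12 B cell receptor signalling genes, 3 were lower, namely Syk, Btk and Lyn. In the trafficking list Cxcr4, Gpr183 and Ccr6 were among the lower genes, and Ccr6, the receptor for Ccl20, had no UMI in the Mgmt-high cells. Itgb7, an integrin of gut and mucosal homing, had 206 CPM against 138 CPM in the wild-type others and 91.1 CPM in the knockout others. Of 7 costimulatory and cytokine genes, 3 were higher and 1 lower, with a median of 0.51. Il10, an inhibitory cytokine, had 31.0 CPM, 19.4 CPM and 11.2 CPM.

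Repair genes other than Mgmt did not share its level. Of 9 measured genes of alkylation and base repair, 8 lay between and 1, Parp1, was lower at 68.1 CPM against 98.3 CPM in the wild-type others, with a list median of -0.16. Mpg, the glycosylase for alkylated adenine, had 16.5 CPM against 12.9 CPM. Of 11 cell cycle genes, 3 were higher (Top2a, Mcm6 and Tyms) and none lower. Mki67, a marker of dividing cells, stood at 26.3 CPM against 29.7 CPM in the wild-type others and 2.49 CPM in the knockout others. Camk2d, the gene targeted in myeloid cells, had 164 CPM in the Mgmt-high cells, 167 CPM in the wild-type others and 187 CPM in the knockout others. These B cell values do not check the deletion, since B cells were not its target.

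Where a heavy chain class could be called, it was almost always IgM in all 3 sets of gated B cells. A heavy chain class was called when 1 gene held over 80% of the class UMIs of a cell and at least 2 UMIs. IgM was called in 193 of 194 Mgmt-high cells (99.5%, interval 97.2% to 99.99%), in 270 of 342 wild-type others (78.9%) and in 223 of 367 knockout others (60.8%). Most of the rest were uncalled, 71 of the wild-type others and 140 of the knockout others. In the Mgmt-high cells the call depended on depth, and fewer were called IgM after thinning, as given below. The knockout others, at a median of 5622 UMIs against 3938.5 in the wild-type others, were deeper but called IgM less often. Ighd, the IgD constant gene, had 24.3 CPM in the Mgmt-high cells, 170 CPM in the wild-type others and 346 CPM in the knockout others. Its UMIs count among the class UMIs, and their part in the uncalled cells was not tested. No Mgmt-high cell was called for a switched class, which allows a share of up to 1.55% by the limit of 3 counts (1.88% by the Clopper-Pearson interval). None of the wild-type others was called for one either, and in the knockout others Ighg1 was called in 1 cell and Ighg2b in 2. Ighg3 had 50 UMIs over all Mgmt-high cells, 25.8 CPM against 4.53 CPM in the wild-type others.

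All 194 Mgmt-high cells held both kappa and lambda transcripts, with more kappa. Kappa was called in 49 Mgmt-high cells (25.3%), lambda in none, and 145 cells passed neither call (74.7%). In the wild-type others kappa was called in 48.8%, lambda in 6.14% and neither in 45.0%. In the knockout others the shares were 59.7%, 7.90% and 32.4%. The lambda share of light chain UMIs per cell had a median of 27.8%, with quartiles of 19.9% and 33.3% and a range from 9.76% to 48.9%. No Mgmt-high cell had more lambda than kappa, whereas 29 of 304 wild-type others and 43 of 360 knockout others with at least 10 light chain UMIs did. Igkc stood at 5016 CPM in the Mgmt-high cells and 4693 CPM in the wild-type others, Iglc2 at 1120 and 810 CPM, and Iglc1 at 247 and 501 CPM. In the wild-type T cells Igkc had 81.7 CPM and Iglc2 had 9.56 CPM, at the depth given above. These T cells were gated to hold no Cd79a, Cd79b or Ms4a1 UMI, so free RNA may be understated in them. The part of free RNA in the lambda transcripts was not tested.

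All genes with at least 20 CPM were counted by chromosome, after the values were seen and with no test. Chromosomes 10, 15, 17 and 18 are the 4 with the highest medians against the wild-type others and were grouped after these were seen. They hold 18.6% of the genes compared by chromosome. Among the named genes, 6 of the 14 highest and none of the 14 lowest lie on them. The named genes come from the same comparison, so this is no separate support. Against the wild-type others, the median log2 ratio was 0.05 on chromosome 10, 0.14 on chromosome 15, 0.12 on chromosome 17 and 0.04 on chromosome 18. On each of the other 16 chromosomes it lay between -0.45 and -0.24. The 832 genes on the 4 chromosomes had a median of 0.10 and the 3637 others a median of -0.30, a difference of 0.40. On each of the 4, 70.9% to 78.8% of genes lay above the median of all genes, against 34.8% to 50.8% on the others. With the genes of each chromosome split by position into 3 runs of near-equal number, the 12 runs of the 4 chromosomes had medians from -0.04 to 0.21. The 48 other runs had medians from -0.68 to -0.16. The 4 chromosomes were picked by the medians of these same genes, so part of this gap was set by that choice.

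The same difference was 0.46 against the knockout others and 0.38 with both wild-type sets limited to 5000 to 10000 UMIs per cell. Comparisons without Mgmt-high cells gave smaller differences. It was 0.08 between the wild-type and knockout other gated B cells, 0.005 between their T cells and -0.007 between their macrophages. It was 0.006 between wild-type gated B cells with neither a Mgmt nor a Zcwpw1 UMI and knockout others without a Zcwpw1 UMI, which were not filtered on a single Mgmt UMI.

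**Figure D4:**
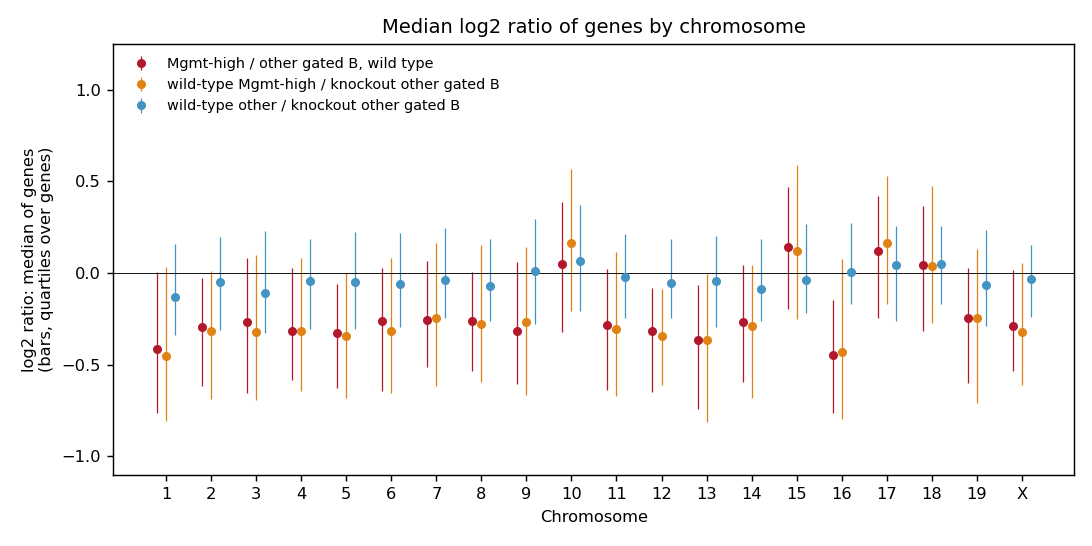
Median log2 ratio of the genes on each chromosome (y axis), for the wild-type Mgmt-high cells against each set of other gated B cells and for the wild-type others against the knockout others. Bars are quartiles over genes, and the x axis is the chromosome. Chromosomes 10, 15, 17 and 18 lie above 0 in both comparisons of the Mgmt-high cells, and all others lie below -0.2.

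The measure was then taken cell by cell. The share of UMIs from the 4 chromosomes, over 4431 genes of 20 to 1000 CPM, had a median of 24.0% in the Mgmt-high cells, with the middle 90% from 22.3% to 25.8%. It was 18.7% in the wild-type cells with neither a Mgmt nor a Zcwpw1 UMI and 18.7% in the knockout others. T cells stood at 19.0% in each library. Of the 194 Mgmt-high cells, 190 (97.9%) lay above the 95th percentile of the wild-type cells without Mgmt or Zcwpw1, which was 20.8%. Of the 38 wild-type cells with 1 Mgmt UMI, 23 lay above it. Of the 367 knockout others, 21 (5.72%) did, with a highest value of 22.9%. The genes that chose the chromosomes are those summed here, so the share is a description. DNA copy number was not measured.

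**Figure D5:**
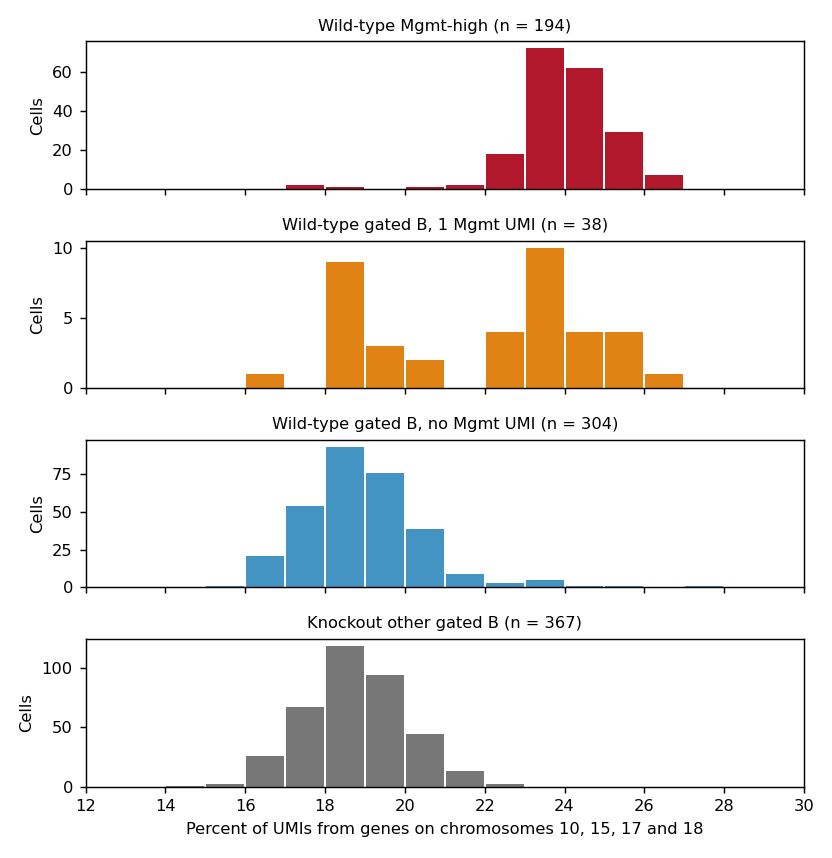
Number of cells (y axis) by the percent of their UMIs from genes on chromosomes 10, 15, 17 and 18 (x axis, steps of 1 percentage point) in 4 sets of gated B cells. The wild-type Mgmt-high cells centre on 24.0% and the knockout others on 18.7%. The wild-type cells with 1 Mgmt UMI fall on both sides.

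Clustered without the genes of the rule and without immunoglobulin genes, the gated B cells formed 4 clusters, and 191 of the 194 wild-type Mgmt-high cells (98.5%) fell in 1 of them. That cluster held 234 cells, 230 from the wild type and 4 from the knockout, and its leading genes were Krt18, Shisa8, Utf1, Krt8 and E330020D12Rik. The remaining 39 wild-type cells of the cluster had fewer than 2 Mgmt UMIs. Each of the other clusters also came mostly from 1 library. They held 303 wild-type and 8 knockout cells, 0 and 227, and 3 and 130. The split by library is therefore not particular to the cluster of the Mgmt-high cells. Krt8 was then read by the Mgmt count. It stood at 21.1 CPM in the 304 cells with no Mgmt UMI, 131 CPM in the 38 cells with 1, 149 CPM at 2 to 3, 173 CPM at 4 to 5 and 162 CPM at 6 or more. The largest step therefore lay between 0 and 1 Mgmt UMI.

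Doublets were scored and not removed. A Scrublet score over 0.25 was given to 4 of the 194 Mgmt-high cells (2.06%), 10 of the 342 wild-type others (2.92%) and 2.79% of all passed wild-type barcodes. The automatic threshold called 0 of 13085 wild-type barcodes and was not used. The rule's limits on T cell, macrophage and collagen transcripts had removed 3, 8 and 10 of the 213 wild-type cells with enough B cell and Mgmt UMIs, each limit counted on its own.

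The 2 knockout cells that met the rule shared some of these features and lacked others. They had 2 and 3 Mgmt UMIs among 22549 and 8611 UMIs, and Krt8 gave 1 and 0. Utf1 and Krt18 gave none in either cell. Zcwpw1 gave 16 and 11 UMIs, Tnfsf8 gave 2 and 4, Arid3a gave 10 and 1, and Ighd gave none. The first cell also carried 11 Mki67 UMIs. Of the 2 cells, 1 fell in the cluster that held most wild-type Mgmt-high cells. From the 4 chromosomes they drew 18.1% and 20.4% of UMIs, below the 5th percentile of the wild-type Mgmt-high cells, 22.3%. Their 5 V segment UMIs came from Ighv7-3, Igkv17-127 and Iglv1.

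Some of the genes were also high in knockout B cells chosen by Zcwpw1. The 39 knockout others with at least 2 Zcwpw1 UMIs, a set formed after the values were seen, had Ctla4 at 99.6 CPM and Tnfsf8 at 113 CPM. Their Zcwpw1 level of 937 CPM followed from the choice and is a description only. These cells were read deeply, at a median of 10852 UMIs. Dusp2 stood at 18.1 CPM in them, near its 13.9 CPM in the wild-type Mgmt-high cells. Their Mgmt level was 27.2 CPM, Krt8 was 63.4 CPM and Krt18 was 24.9 CPM, and Utf1 had no UMI. On the 4 chromosomes together, their difference against the knockout others without Zcwpw1 was 0.05. By chromosome the median log2 ratio was 0.22 on chromosome 15, 0.05 on 17, 0.03 on 10 and -0.11 on 18. Chromosome 15 gave a median of 6.46% of UMIs per cell in them, 5.15% in the knockout others without Zcwpw1 and 7.13% in the wild-type Mgmt-high cells. Because 1 library was made per genotype, a difference between genotypes and a difference between libraries or mice cannot be told apart.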

How the data were processed

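Single-cell 3′ gene expression libraries of the epididymal stromal vascular fraction were analysed, 1 per genotype. The deposited values are UMI counts per gene and barcode for 32285 genes, made with Cell Ranger 5.0.0 on mm10 per the submitters' processing notes, which also name Seurat 4.1.1. UMI totals were 75436677 (wild type) and 87015918 (knockout). Counts were filtered and gated as described above, summed per cell set and divided by the set's total. Ratios have exact conditional intervals. Named genes were the 14 highest and 14 lowest ratios past the stated minimum, in the wild-type Mgmt-high comparison only; some items are not reported here. Coordinates came from GENCODE M21 (32158 gene identifiers matched, 127 did not). The members and lists were chosen with earlier results of these data known. Cells were clustered with scanpy 1.11.5 and leidenalg 0.10.2, and doublets scored with Scrublet in scanpy. On simulated counts for 2048 genes, 95.7% of intervals held the true ratio. Those counts had the Poisson error that the intervals assume and no differences between cells, so this checks the calculation only. Alternatives changed scaling, depth, thresholds, filters, doublets and comparison cells.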

Additional observations from a re-analysis of the deposited data

How the results depend on the processing

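No paired analysis was possible because there was 1 library per genotype. The count of genes at least 2-fold higher (37) was 87 with median-of-ratios scaling, 23 with both sets at 5000 to 10000 UMIs, 20 with at least 4 Mgmt UMIs, 24 with at least 8 B gene UMIs, 164 with a minimum of 10 CPM and 1578 with no minimum. The count at least 2-fold lower (91) was 33 with median-of-ratios scaling, 139 as a mean of per-cell CPM, 50 at 5000 to 10000 UMIs, 205 thinned to 1500 UMIs, 46 with at least 4 Mgmt UMIs, 155 with at least 2500 UMIs and at most 5% mitochondrial, 646 with a minimum of 10 CPM and 3788 with none. The wild-type share of Mgmt-high cells (36.2%) was 43.3% with 1 Mgmt UMI, 24.3% with 4, 31.7% under the stricter quality filter, 42.8% with 8 B gene UMIs and 7.40% after thinning. The knockout share (0.542%) was 7.05% with 1 Mgmt UMI, 0% with 4 and 0% after thinning. The IgM share was 81.4% after thinning, and 92.3% of Mgmt-high cells stayed in 1 cluster at resolution 1.0. The share of the 4 V segments and of kappa calls stayed within their intervals in all alternatives run. The chromosome difference ranged from 0.31 to 0.46 over the same alternatives, which were added after seeing the data.

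Of 392 values of the 28 named genes over 14 settings, 317 lay within the reported interval, 75 outside it and none changed sign. Against the knockout others, Col4a1 reversed to 0.63. Of 336 list medians, 3 reversed: marginal zone genes (0.66 without Cr2, which had no UMI, and 0.50 with it at 3 UMIs) went to -0.045 at 5000 to 10000 UMIs, and age-associated genes (0.73) to -0.045 there and -0.28 after thinning. The cause was not tested. The comparison of Mgmt-high with other gated B cells within the knockout, and that of Mgmt-high cells between genotypes, were not run, as only 2 knockout cells met the rule. Depth limits the V segment calls, with 195 V UMIs over 194 cells.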

Other observations

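Of 12 oxidative phosphorylation genes measured in the wild-type Mgmt-high cells, 10 lay between the limits. The other 2 were at least 1.5-fold higher than in the wild-type others, and the list had a median log2 ratio of 0.15 against -0.29 over all genes. Cox6c, a subunit of cytochrome c oxidase, had 613 CPM against 399 CPM, and Atp5b, a subunit of ATP synthase, had 337 CPM against 224 CPM. Glycolysis genes had a median of -0.08. In the survival list, Tnfrsf13c, the BAFF receptor, had 132 CPM against 85.4 CPM in the wild-type others and 75.4 CPM in the knockout others, and Pim2 had 21.7, 12.9 and 15.7 CPM. Odc1, the rate-limiting enzyme of polyamine synthesis, and Ccnd2, a cyclin of early G1 phase, were picked after their values were seen. Odc1 had 720, 282 and 273 CPM in the Mgmt-high cells, the wild-type others and the knockout others, and Ccnd2 had 308, 144 and 242 CPM. Myc, a transcription factor known to drive Odc1, had 18.6, 35.6 and 41.4 CPM.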
